A study of Drosophila melanogaster with 8 samples.

Results

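Germ plasm is the cytoplasm at the posterior pole of the insect oocyte that instructs the cells forming there to become germ cells, and polar granules are its RNA and protein particles. A group of 7 genes of this system was followed in Drosophila melanogaster ovaries: osk, vas, tud, vls, csul, gcl and pgc. They were taken by gene name from the count tables, where each name matched 1 of the 14094 genes listed, and all 7 were among the 8957 genes that passed the filter on low counts. The study measured ovary RNA after germline knockdown of stwl, the gene for the chromatin-associated protein Stonewall, with either of the germline drivers nosGAL4 and bamGAL4.

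Each of the 4 groups had 2 libraries of total RNA from adult ovaries dissected 1 to 3 days after eclosion. The nosGAL4 flies labelled knockdown had the genotype nosGAL4;stwl RNAi/TM6, and their controls nosGAL4;MKRS/TM6. The bamGAL4 flies labelled knockdown were bamGAL4>stwl RNAi/TM6, and their controls carried bamGAL4 alone. Control flies of a pair thus carried the same GAL4 driver. By the labels the TM6 balancer chromosome was in every group except the bamGAL4 controls, and MKRS was in the nosGAL4 controls only. With either driver, a difference in these chromosomes and the knockdown therefore cannot be told apart. GAL4 of nosGAL4 is made in germ cells from the stem cell onward, and that of bamGAL4 in dividing germline cysts. The labels do not say whether replicates came from separate flies or crosses. The p-values set each difference against the spread between these libraries, which may be technical. That spread was estimated over the 4 groups together.

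Oskar protein nucleates the germ plasm: it recruits the DEAD-box RNA helicase Vasa, and Tudor joins the granule by binding arginines that carry symmetric methyl marks. These marks are made by Capsuleen (csul), the fly PRMT5 methyltransferase, with its WD-repeat partner Valois (vls), the fly MEP50. The mRNAs of gcl and pgc are deposited in the germ plasm, where Germ cell-less, a substrate adapter of a ubiquitin ligase, is needed for pole cells to form, and Pgc holds back RNA polymerase II elongation in them. No sequence is printed for these genes.

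Total counts were between 7473859 and 12174983 per library, and 8398 to 10447 genes had a count. The targeted gene was not lower in the libraries labelled knockdown. With nosGAL4, stwl stood at 61.1 and 27.7 CPM (counts divided by library size, with TMM factors, on the usual CPM scale) in those labelled knockdown, against 23.1 and 16.9 CPM in the controls, a log2 fold change of 1.15 (SE 0.37, edgeR quasi-likelihood test, adjusted p by Benjamini and Hochberg's method = 0.0203), a call that was lost in 6 of 18 alternative analyses (adjusted p from 0.000433 to 0.208). Without nosGAL4 knockdown replicate 1 it was 0.46. In the bamGAL4 libraries labelled knockdown it stood at 23.2 and 29.6 CPM, against 18.2 and 21.0 CPM in their controls (0.43, SE 0.36, adjusted p = 0.313). The level of stwl therefore does not check the knockdown label, and every direction below is that of the libraries so labelled. The germline genes nos and bam did differ between the labels. In the nosGAL4 libraries labelled knockdown, nos was at 4.59 and 1.46 CPM, against 408 and 452 CPM in their controls. There bam was at 0 and 0.928 against 39.9 and 43.6 CPM. Both genes are in the germline marker list used below, so their fall does not check that stwl was knocked down. Pearson's r of log2 CPM across genes between replicates was 0.904 in the nosGAL4 libraries labelled knockdown, against 0.966 in their controls, and 0.977 in the bamGAL4 libraries labelled knockdown, against 0.961 in their controls. By the chi-square of replicate counts per degree of freedom the order was another, at 56.1 in the nosGAL4 libraries labelled knockdown and 12.4 in their controls, and at 33.1 in the bamGAL4 libraries labelled knockdown and 133 in their controls.

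With both drivers, 6 of the 7 genes fell and 1, tud, rose. Across all genes tested, 25.7% fell and 33.5% rose with nosGAL4, and 33.1% fell and 35% rose with bamGAL4. The median log2 fold change of the 7 genes was −1.61 with nosGAL4 and −2.78 with bamGAL4, beside 0.11 and −0.06 over all genes. Libraries labelled knockdown and controls did not overlap for any of the 7 genes with either driver, as for 79.8% of all genes with nosGAL4 and 87.2% with bamGAL4. In extracts of whole ovaries, fewer germ cells and less RNA per germ cell cannot be told apart.

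**Figure D1:**
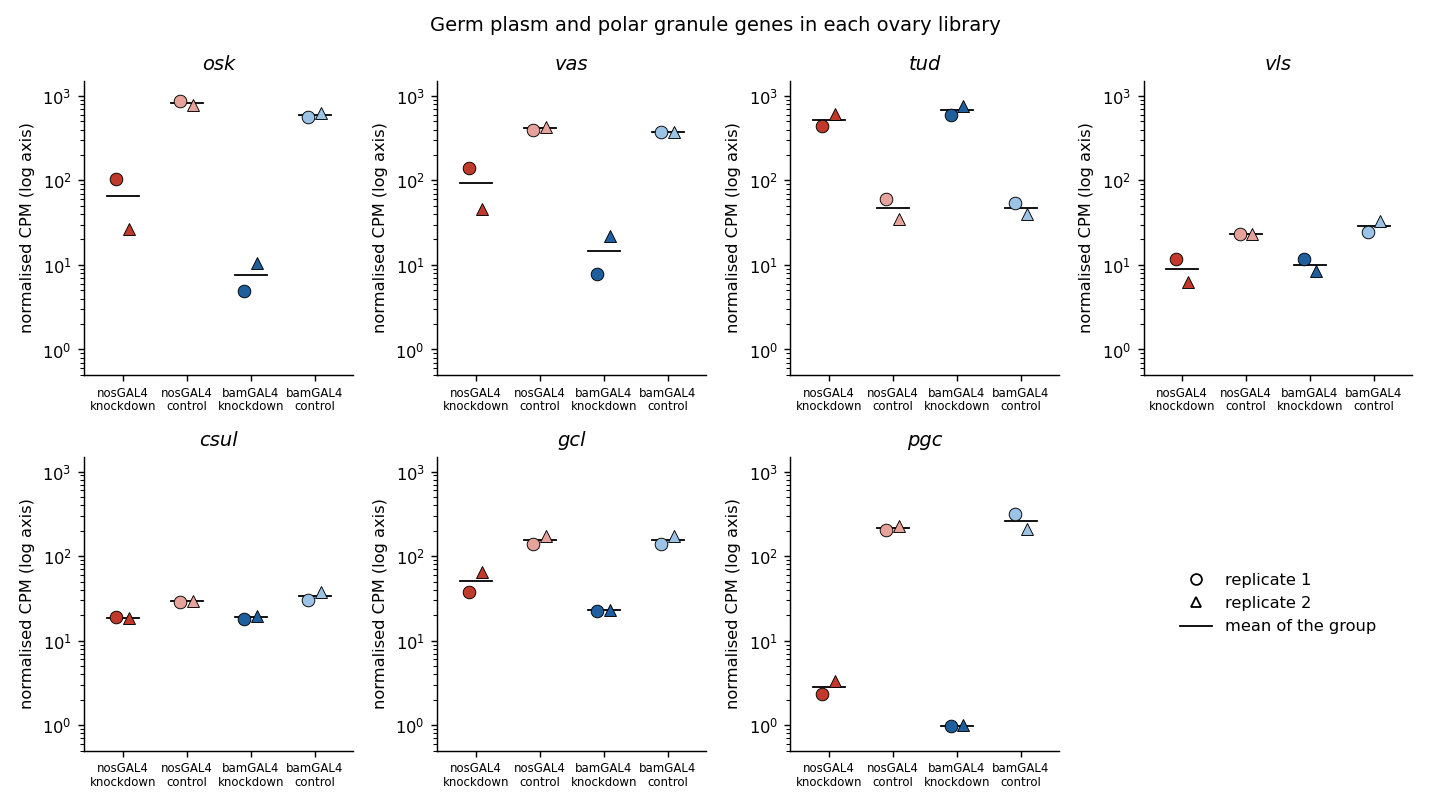
Normalised CPM (log axis) of each gene in each library, with the libraries labelled knockdown left of their controls for each driver; circles are replicate 1, triangles replicate 2 and the line is the group's mean. With both drivers 6 genes are lower in the libraries labelled knockdown and tud is higher, and osk and vas spread most between replicates in those libraries.

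The organiser of the germ plasm, osk (FBgn0003015, dm6 3R:8935126-8938395, plus strand, exons of 2869 bp in all), was at 104 and 26.5 CPM in the nosGAL4 libraries labelled knockdown, against 863 and 778 CPM in their controls. The bamGAL4 libraries had it at 4.87 and 10.5 CPM in those labelled knockdown, against 557 and 634 CPM in the controls. Every library labelled knockdown lay below every control, and replicate 1 of the nosGAL4 pair stood 3.93 times above replicate 2. The log2 fold change was −3.65 with nosGAL4 (SE 0.65, edgeR adjusted p = 0.00237, a 12.5-fold fall) and −6.28 with bamGAL4 (SE 0.75, adjusted p = 0.000237, a 77.5-fold fall). Leaving out nosGAL4 knockdown replicate 1 gave −4.96 and leaving out replicate 2 gave −2.99, and without bamGAL4 knockdown replicate 2 the change with that driver was −6.93. Non-coding RNAs annotated over osk were not analysed here. One of them, lncRNA:osk, shares 2251 bp of exon with osk on the same strand. It was not among the genes listed, so the counts of osk may include its reads.

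The Vasa helicase gene vas (FBgn0283442, 2L:15061656-15074311, plus strand) was at 139 and 46.4 CPM in the nosGAL4 libraries labelled knockdown, against 397 and 434 CPM in their controls. Under bamGAL4 its level was 7.86 and 21.8 CPM in the libraries labelled knockdown, against 371 and 378 CPM in the controls. As for osk, the groups were apart with both drivers and replicate 1 of the nosGAL4 libraries labelled knockdown was the higher of its pair, by 2.99 times. Log2 fold changes were −2.17 (SE 0.59, edgeR adjusted p = 0.0153) with nosGAL4 and −4.66 (SE 0.66, adjusted p = 0.000564) with bamGAL4. The nosGAL4 value was −3.17 without knockdown replicate 1 and −1.60 without knockdown replicate 2. It no longer passed when control replicate 2 was left out (−2.11, adjusted p = 0.0587) or when no filter on low counts was used (−2.20, adjusted p = 0.0503), and the bamGAL4 value was −5.57 without knockdown replicate 2.

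Other genes lie within or over vas, and the strand setting of the counting is not given in the sources used here. The cohesion gene solo shares 563 bp of exon with vas on the same strand, so that reads of those exons are divided between them by estimation. It had 2.81 and 1.99 CPM in the nosGAL4 libraries labelled knockdown and 3.56 and 4.10 CPM in their controls, far under vas in each library. The opposite-strand gene vig, which lies inside the span of vas and shares no exon bases with it, was at 339 and 449 CPM in the nosGAL4 libraries labelled knockdown, against 81.4 and 94.3 CPM in their controls. It rose by 2.16 on the log2 scale (SE 0.24, edgeR adjusted p = 2.84e-05) with nosGAL4 and by 2.64 (SE 0.24, adjusted p = 6.57e-06) with bamGAL4, while vas fell.

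The gene that went the other way was tud (FBgn0003891, 2R:21183322-21192913, plus strand), whose protein has many Tudor domains that bind methylated arginine. It was at 439 and 609 CPM in the nosGAL4 libraries labelled knockdown, against 61.0 and 34.5 CPM in their controls. With bamGAL4 it was at 589 and 768 CPM in those labelled knockdown, against 54.6 and 40.5 CPM in the controls. Each library labelled knockdown was above each control, and the log2 fold change was 3.46 with nosGAL4 (SE 0.34, edgeR adjusted p = 1.4e-05, an 11-fold rise) and 3.84 with bamGAL4 (SE 0.35, adjusted p = 6.22e-06, a 14.3-fold rise). This rise kept its call in all 18 alternatives with both drivers. Its exons cover 8830 bp, the longest of the 7 genes, and no gene of the annotation overlaps it.

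Fold changes moved with exon length in these tables, and tud sits at the long end. Among the 439 tested genes with over 8000 bp of exon, the median log2 fold change was 1.83 with nosGAL4 and 2.58 with bamGAL4. For the 2484 genes of 1500 to 2500 bp it was −0.04 and −0.37. After a correction for exon length, tud changed by 2.08 with nosGAL4 (edgeR adjusted p = 0.00039) and by 1.61 with bamGAL4 (adjusted p = 0.00148), so that its size depended on the correction while its call did not. With that correction pgc changed by −7.44 with bamGAL4, and the other genes moved by less than 1.5-fold.

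**Figure D2:**
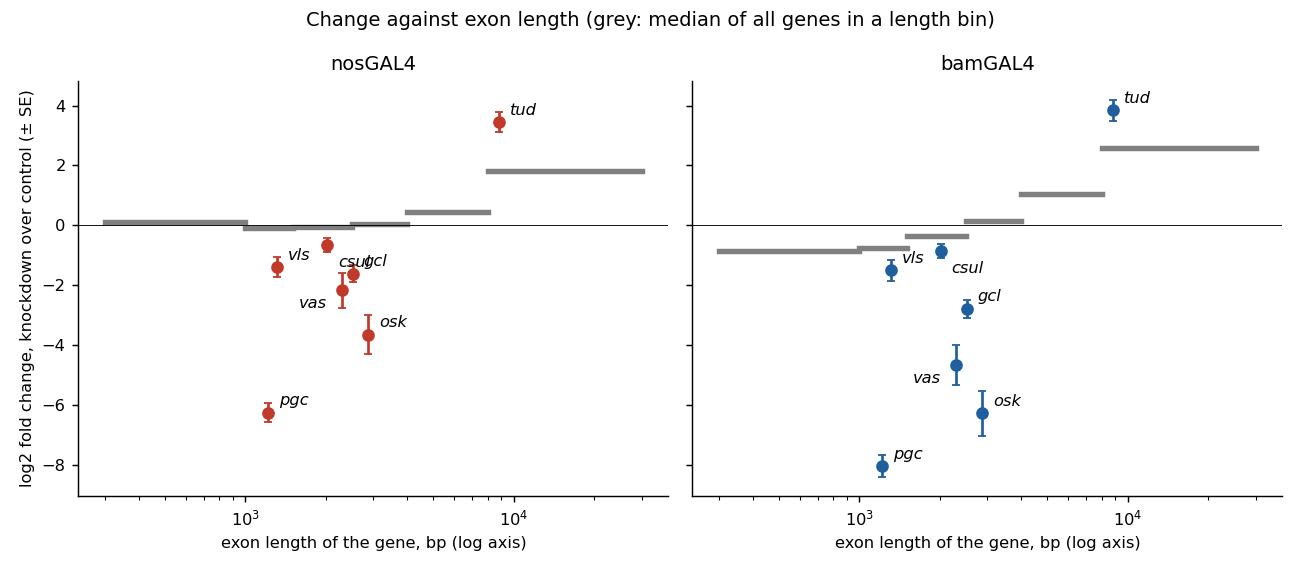
Log2 fold change of the 7 genes (points, with SE) against the length of their exons in bp (log axis), with nosGAL4 and bamGAL4, and the median of all tested genes in each length bin as grey lines. The grey medians reach 1.83 and 2.58 above 8000 bp, and tud lies above them at 3.46 and 3.84, while the other 6 genes lie below the median of their bin.

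The pair that makes the methyl marks changed least. The gene vls (FBgn0003978, 2L:20064261-20065679, minus strand) was at 11.6 and 6.23 CPM in the nosGAL4 libraries labelled knockdown, against 23.3 and 23.4 CPM in their controls. The bamGAL4 libraries had it at 11.6 and 8.55 CPM in those labelled knockdown, against 24.5 and 32.7 CPM in the controls. It fell by 1.39 on the log2 scale with nosGAL4 (SE 0.35, edgeR adjusted p = 0.00689) and by 1.50 with bamGAL4 (SE 0.35, adjusted p = 0.00332). Its 3′ end shares 121 bp of exon with the checkpoint kinase gene lok on the opposite strand, which was at 43.5 and 21.2 CPM in the nosGAL4 libraries labelled knockdown, against 342 and 369 CPM in their controls, so that reads of both may be mixed if strand was not used.

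The methyltransferase gene csul (FBgn0015925, 2R:16264652-16266959, plus strand) was at 18.8 and 18.4 CPM in the nosGAL4 libraries labelled knockdown, against 29.0 and 29.8 CPM in their controls. Under bamGAL4 its level was 18.0 and 19.8 CPM in the libraries labelled knockdown, against 30.5 and 37.6 CPM in the controls. The groups were apart, with replicates within 1.23 times of each other. Log2 fold changes were −0.66 (SE 0.24, edgeR adjusted p = 0.0377) with nosGAL4 and −0.85 (SE 0.24, adjusted p = 0.00974) with bamGAL4. These calls were the least stable of the 7, lost in 8 of 18 alternatives with nosGAL4 (adjusted p from 0.00423 to 0.133) and in 4 with bamGAL4. Scaling to ribosomal protein genes put csul at 0.05 with bamGAL4 (adjusted p = 0.906) and vls at −0.63 (adjusted p = 0.11). That scaling put the median of all genes at 0.83, beside −0.06 with TMM. Relative to the median of all genes, csul stayed between −1 and −0.48 over the 18 alternatives with bamGAL4 and between −0.85 and −0.61 with nosGAL4.

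Of the mRNAs that germ plasm stores for the embryo, gcl (FBgn0005695, 2R:8724258-8728999, plus strand) was at 37.2 and 64.5 CPM in the nosGAL4 libraries labelled knockdown, against 140 and 171 CPM in their controls. With bamGAL4 it was at 22.3 and 23.3 CPM in those labelled knockdown, against 140 and 172 CPM in the controls. It fell by 1.61 on the log2 scale with nosGAL4 (SE 0.28, edgeR adjusted p = 0.000797) and by 2.78 with bamGAL4 (SE 0.30, adjusted p = 2.05e-05). Within the nosGAL4 libraries labelled knockdown its order was opposite to that of osk and vas, since replicate 1 was at 0.576 times replicate 2. The opposite-strand gene CG30356 shares 36 bp of exon with gcl and had at most 3 counts in any library.

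The transcript of pgc (FBgn0016053, 2R:22330200-22332813, plus strand) showed the largest falls of the 7. It was at 2.32 and 3.32 CPM in the nosGAL4 libraries labelled knockdown, against 204 and 226 CPM in their controls. The bamGAL4 libraries had it at 0.975 and 0.994 CPM in those labelled knockdown, from 11 and 10 estimated counts, against 316 and 210 CPM in the controls. Log2 fold changes were −6.25 with nosGAL4 (SE 0.33, edgeR adjusted p = 3.39e-07) and −8.04 with bamGAL4 (SE 0.37, adjusted p = 2.08e-07). Ordered from the lowest fold change of 8957 genes, pgc was at position 71 with nosGAL4 and 64 with bamGAL4, and osk at 234 and 117. The exons of T3dh, a dehydrogenase gene on the other strand, overlap 569 bp of those of pgc. T3dh was at 19.3 and 17.1 CPM in the nosGAL4 libraries labelled knockdown, against 5.18 and 3.03 CPM in their controls, and reads of both may be mixed if strand was not used.

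**Figure D3:**
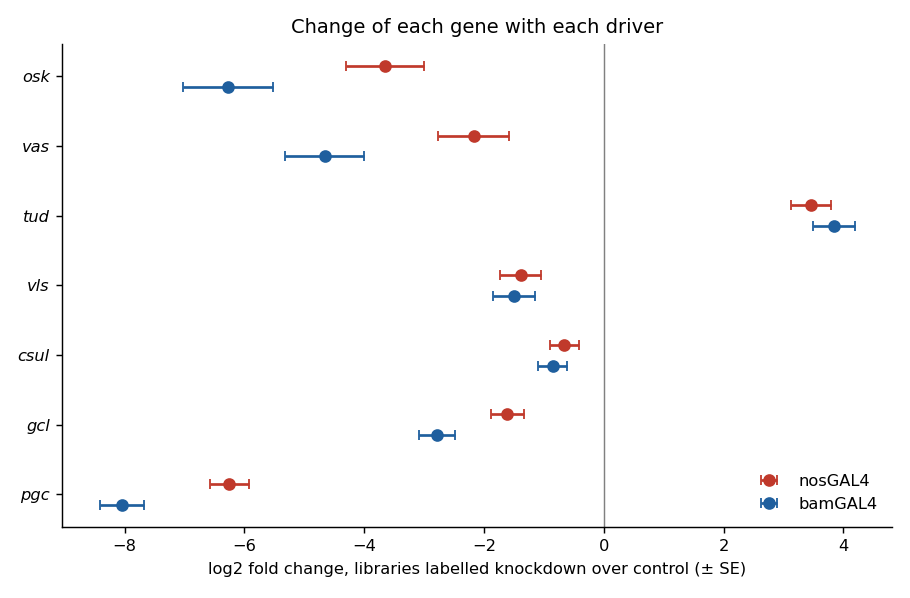
Log2 fold change of each gene, libraries labelled knockdown over controls, with its SE as the bar, for nosGAL4 (red) and bamGAL4 (blue). Values run from −6.25 (pgc) to 3.46 (tud) with nosGAL4 and from −8.04 to 3.84 with bamGAL4, and csul lies nearest to 0 with both.

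Per kb of exon, the order of the genes changed between the groups. The nosGAL4 libraries labelled knockdown had tud highest at a mean of 59.3 CPM per kb, then vas (40.5), osk (22.8), gcl (20.2), csul (9.25), vls (6.82) and pgc (2.33). In their controls osk led at 286 CPM per kb, followed by vas (182), pgc (177), gcl (61.9), vls (17.8), csul (14.6) and tud (5.40). The bamGAL4 libraries labelled knockdown had tud at 76.8 CPM per kb, then csul (9.38), gcl (9.09), vls (7.69), vas (6.48), osk (2.68) and pgc (0.812). In their controls the order was pgc (217), osk (208), vas (164), gcl (62.2), vls (21.8), csul (17.0) and tud (5.38). Several neighbours in these orders overlapped between replicates. In the nosGAL4 libraries labelled knockdown these were tud with vas, vas with osk and osk with gcl, and in their controls vas with pgc. In the bamGAL4 libraries labelled knockdown they were csul with gcl, vls with vas and vas with osk, and in their controls pgc with osk. The last place of tud in both control groups, and its first place in the bamGAL4 libraries labelled knockdown, did not overlap with the next gene.

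**Figure D4:**
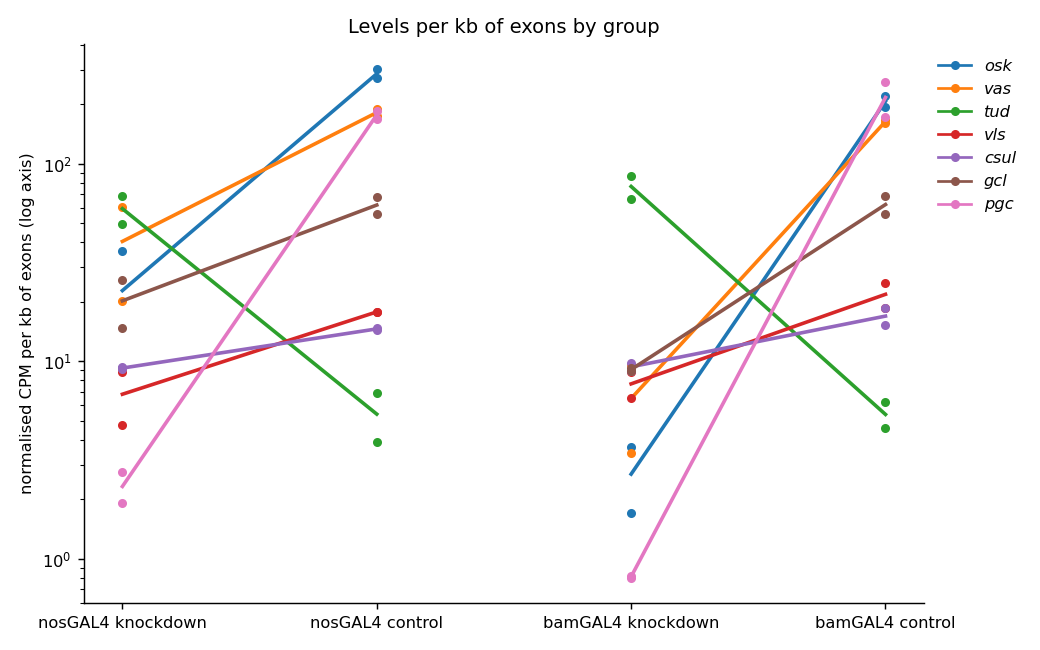
Normalised CPM per kb of exon (log axis) for each gene in the 4 groups; points are libraries and lines join the means of the libraries labelled knockdown (left) and their controls (right) of a driver. The line of tud crosses those of the other genes: it is last in both control groups, at 5.40 and 5.38, and has the highest mean in both groups labelled knockdown, at 59.3 and 76.8.

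The ratio of tud to osk per kb was 1.37 and 7.46 in the nosGAL4 libraries labelled knockdown, against 0.023 and 0.0144 in their controls. With bamGAL4 it was 39.3 and 23.7 in the libraries labelled knockdown, against 0.0319 and 0.0207 in the controls. Of the summed CPM of the 7 genes, tud made up 58.4% and 78.6% in the nosGAL4 libraries labelled knockdown and 3.55% and 2.03% in their controls, and 90.0% in each bamGAL4 library labelled knockdown against 3.66% and 2.69% in the controls. The 6 other genes summed to 313 and 165 CPM in the nosGAL4 libraries labelled knockdown and to 1660 CPM in each of their controls. The ratio of vas to osk per kb also differed, at 1.67 and 2.20 in the nosGAL4 libraries labelled knockdown against 0.578 and 0.701 in their controls, and at 2.02 and 2.59 against 0.836 and 0.750 with bamGAL4.

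Likeness between genes was measured as the root mean square difference of their log2 CPM over the 8 libraries, after each gene was centred on its own mean. It was not scaled to the size of a gene's changes, so genes that change little lie close by this measure. The closest pair of the 7 was csul and vls, at 0.454, followed by gcl and vls (0.751) and osk and vas (0.808). The farthest was pgc and tud (5.43). Against 7597 other genes with a mean of at least 5 CPM, the gene nearest to osk was CG44005 (0.449), then the eggshell gene fs(1)M3 (0.464). For vas the nearest were the germline innexin gene zpg (0.290) and the synaptonemal complex gene c(2)M (0.356). The nearest to tud were Zir (0.162) and pot (0.195), a zona pellucida domain protein gene. NELF-B (0.115) and Seipin (0.120) lay nearest to vls, and CG5510 (0.0655) and Rbsn-5 (0.0826) nearest to csul. For gcl they were rdgBbeta (0.200) and DNApol-delta (0.215), and for pgc they were exu (0.561) and Pxt (0.603).

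Whether the drivers differed in effect was tested as the nosGAL4 effect minus the bamGAL4 effect. None of the 7 genes passed the edgeR test, where 2.68% of all genes did, but 4 had an unadjusted p under 0.05 (24.7% of all genes did) and 3 were called by DESeq2 (11.7% of all genes). The difference was 2.63 for osk (95% interval 0.59 to 4.66, edgeR adjusted p = 0.127), 2.50 for vas (0.58 to 4.41, adjusted p = 0.126), 1.79 for pgc (0.76 to 2.83, adjusted p = 0.0639) and 1.16 for gcl (0.28 to 2.05, adjusted p = 0.116). For tud it was −0.38 (−1.36 to 0.60), for csul 0.19 (−0.56 to 0.95) and for vls 0.12 (−0.97 to 1.21). DESeq2 called osk, vas and pgc (adjusted p = 0.0099, 0.0126 and 0.04). The calls depended on single libraries: without nosGAL4 knockdown replicate 2 osk (3.29, edgeR adjusted p = 0.000846) and vas (3.07, adjusted p = 0.00679) passed, and without nosGAL4 knockdown replicate 1 gcl (1.51, adjusted p = 0.0256) and pgc (2.03, adjusted p = 0.046) passed. Without bamGAL4 control replicate 2, pgc passed (2.05, adjusted p = 0.0483). Ribosomal protein scaling put the median difference of all genes at −1.22, beside 0.16 with TMM, and then tud, vls and csul were called as lower.

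The groups of the drivers were also set directly against each other. The edgeR test called none of the 7 genes among the nosGAL4 against bamGAL4 libraries labelled knockdown (4.14% of all genes), with 4 at an unadjusted p under 0.05 (22.9% of all genes) and 4 called by DESeq2 (9.65% of all genes). Those 4 were osk (log2 fold change 3.09, SE 0.66, edgeR adjusted p = 0.0501), vas (2.65, SE 0.61, adjusted p = 0.0617), pgc (1.50, SE 0.39, adjusted p = 0.0628) and gcl (1.16, SE 0.29, adjusted p = 0.052). A call was gained in 8 of 18 alternatives for osk, 5 for gcl, 4 for vas and 4 for pgc. The log2 fold change of osk was 1.79 without nosGAL4 knockdown replicate 1 and 3.76 without replicate 2. The values of these 4 genes in the nosGAL4 libraries labelled knockdown were above those in the bamGAL4 ones without overlap, as for 27.1% of all genes. Between the nosGAL4 and bamGAL4 controls no gene of the 7 was called by edgeR (6.8% of all genes) or DESeq2 (13.2%), and 0 had an unadjusted p under 0.05 (25.2%). The control differences ran from −0.30 (vls) to 0.46 (osk, 95% interval −0.91 to 1.84). Driver, balancers and any batch between the count tables cannot be told apart in these comparisons.

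Other genes of the pathway were counted in 5 lists, to be read against the 25.7% lower and 33.5% higher of all genes with nosGAL4 and the 33.1% and 35% with bamGAL4. No test compared a list with other genes. Of 5 genes whose mRNAs localise to germ plasm, 4 fell with nosGAL4 and 4 with bamGAL4, with none higher, and the median log2 fold changes were −2.18 and −5.50. They included nos (−7.15, SE 0.47, with nosGAL4 and −7.82, SE 0.48, with bamGAL4), the mitotic cyclin gene CycB (−4.25, SE 0.55, and −5.66, SE 0.59) and zpg (−2.18, SE 0.52, and −5.50, SE 0.63). Hsp83 did not pass with nosGAL4 (−0.40, edgeR adjusted p = 0.151), nor Bsg25D with bamGAL4 (−0.39, adjusted p = 0.173). Of 5 genes for the methylosome and its Sm protein substrates, 4 fell with nosGAL4 and 5 with bamGAL4 (medians −1.65 and −2.83). The chaperone gene icln changed by −1.70 (SE 0.25) and −3.03 (SE 0.26), SmB by −1.75 (SE 0.25) and −2.87 (SE 0.26) and SmD1 by −1.65 (SE 0.26) and −2.83 (SE 0.27). SmE did not pass with nosGAL4 (−0.53, edgeR adjusted p = 0.0956). These exceptions were named after their values were seen. These lists were chosen with earlier results of these data known, and the edgeR threshold of an adjusted p of 0.05 is that used for all genes.

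Of 11 tested genes for other polar granule and nuage proteins, 5 fell and 1 rose with nosGAL4, where 25.7% of all genes fell and 33.5% rose. With bamGAL4, 6 fell and 2 rose, where 33.1% of all genes fell and 35% rose (list medians −0.63 and −2.51). The Tudor domain gene vret changed by −2.31 (SE 0.31) and −3.19 (SE 0.31), mael by −1.55 (SE 0.25) and −2.51 (SE 0.26) and the Piwi family gene AGO3 by −3.19 (SE 0.46) with nosGAL4. The deubiquitinase gene faf, needed for germ plasm to hold its components, changed by 1.66 (SE 0.23) with bamGAL4. The 1 call of a rise with nosGAL4 was also faf (0.62, edgeR adjusted p = 0.0352), chosen after its values were seen, and that count of 1 was 0 or 2 in 16 of 18 alternatives.

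Of 15 genes for factors that assemble and carry osk mRNA, 5 were lower and 4 higher with nosGAL4 and 6 lower and 5 higher with bamGAL4 (medians −0.44 and 0.07). These shares lay near those of all genes, 25.7% lower and 33.5% higher with nosGAL4 and 33.1% and 35% with bamGAL4. The localisation factor gene exu was lowest at −5.62 (SE 0.25) and −7.22 (SE 0.26). The tropomyosin gene Tm1, which muscle also uses, changed by 2.69 (SE 0.23) and 2.93 (SE 0.24), the formin gene capu by 2.36 (SE 0.30) with nosGAL4 and the polarity kinase gene par-1 by 1.99 (SE 0.23) with bamGAL4. With the length correction 9 and 10 of the 15 were lower, and with ribosomal protein scaling 8 were lower and 2 higher with nosGAL4 and 3 lower and 8 higher with bamGAL4. Of 11 tested genes that control osk translation, 5 fell and 1 rose with either driver, beside 25.7% lower and 33.5% higher over all genes with nosGAL4 and 33.1% and 35% with bamGAL4. The poly(A) polymerase gene wisp changed by −4.55 (SE 0.31) and −6.00 (SE 0.34), the DEAD-box gene me31B by −2.54 (SE 0.28) and −3.46 (SE 0.29) and tral by −2.84 (SE 0.30) and −3.16 (SE 0.31). The rise was of Imp with nosGAL4 (1.71) and of heph with bamGAL4 (0.69), both chosen after their values were seen, and the bamGAL4 count of 1 ranged from 0 to 3 and moved in 10 of 18 alternatives. A 12th gene of that list, cup, was listed at 0 in all 8 libraries. BicC was listed at 0 in 5 of them, so the list's medians are given without it, −1.57 and −1.80 over 10 genes. In estimated counts an exact 0 can be a failed estimate, so these zeros are not read as absence of the transcripts.

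**Figure D5:**
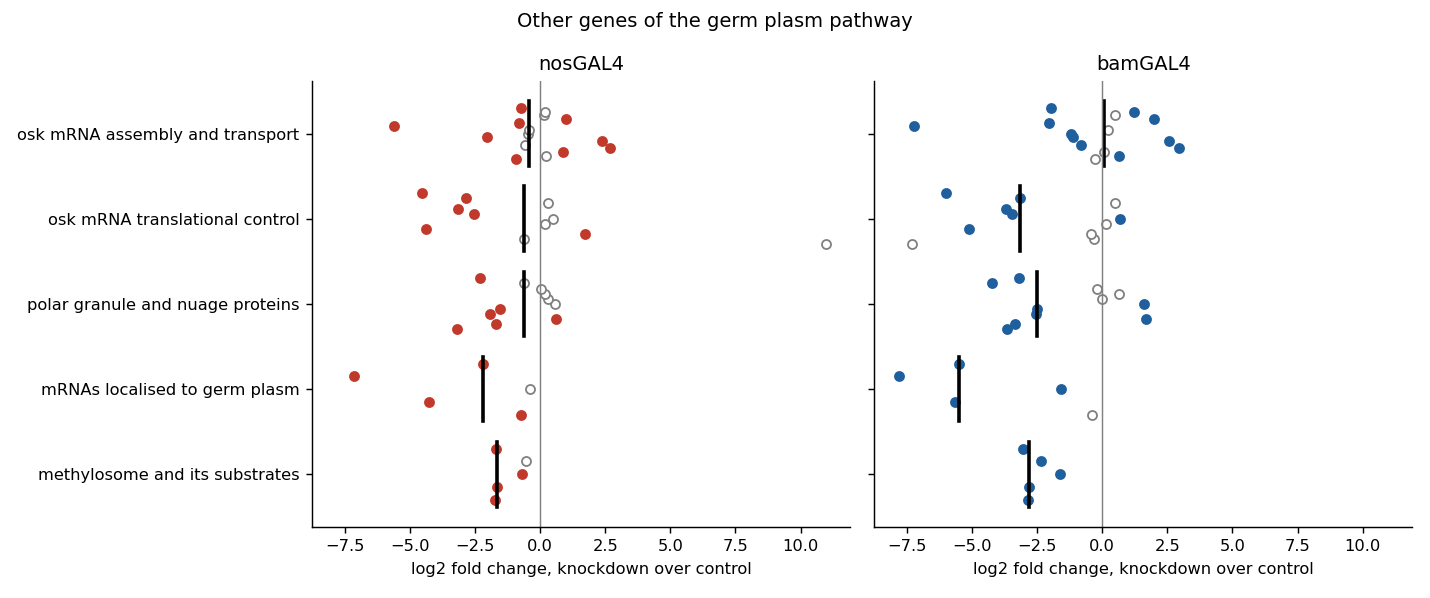
Log2 fold change, libraries labelled knockdown over controls, of the other tested genes of the pathway in 5 lists, with nosGAL4 (left) and bamGAL4 (right). Filled points passed the test, open points did not, and black lines are list medians with BicC included; the open points farthest out in the translational control list are BicC.

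Markers of other cell types moved with these results in the same libraries. Their counts are to be read beside the 33.5% of all genes that rose with nosGAL4 and the 35% with bamGAL4. All 8 muscle markers rose with both drivers, and their summed level was 24700 and 28600 CPM in the nosGAL4 libraries labelled knockdown, against 219 and 272 CPM in their controls, and 31200 and 30800 against 275 and 324 CPM with bamGAL4. All 8 haemocyte and fat body markers rose as well, summing to 4120 and 4520 CPM in the nosGAL4 libraries labelled knockdown, against 104 and 136 CPM, and to 12700 and 13900 against 64.8 and 64.2 CPM with bamGAL4. In the nosGAL4 controls the haemocyte receptors eater and NimC1 were at 0, and in the bamGAL4 controls NimC1 was. Both receptors were named after their values were seen. Of 8 somatic gonad markers 7 rose with each driver, and 4 of 5 tested neuronal markers did, with sums of 180 and 254 CPM in the nosGAL4 libraries labelled knockdown against 7.19 and 6.24 CPM, and 268 and 323 against 3.41 and 2.06 CPM with bamGAL4. The somatic gonad sums were 1770 and 2090 against 175 and 168 CPM with nosGAL4, and 1550 and 1670 against 144 and 109 CPM with bamGAL4.

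Of 8 late follicle cell markers, eggshell genes among them, 6 fell with nosGAL4 and 8 with bamGAL4, beside 25.7% and 33.1% of all genes. The sum of the markers was 2580 and 561 CPM in the nosGAL4 libraries labelled knockdown, higher in replicate 1 as osk and vas were, against 13800 and 14800 CPM in the controls. With bamGAL4 it was 88.7 and 69.8 CPM in the libraries labelled knockdown, against 12200 and 15800 CPM in the controls. A list of 12 germline markers included the somatic gene fs(1)Yb. Of all genes, 25.7% fell and 33.5% rose with nosGAL4, and 33.1% and 35% with bamGAL4. The list had 6 lower and 4 higher with nosGAL4, the latter near the share of all genes. With bamGAL4 it had 6 lower and 3 higher. It summed to 851 and 1040 CPM in the nosGAL4 libraries labelled knockdown, against 2110 and 2290 CPM in the controls, and to 546 and 667 against 1560 and 1590 CPM with bamGAL4. The sum covers unlike changes, since Sxl, which somatic cells also express, made up 431 and 511 CPM of it in the nosGAL4 libraries labelled knockdown, against 294 and 322 CPM in the controls, and rose (0.61, SE 0.22). Rbfox1 rose as well with nosGAL4 (2.04, SE 0.30), and which cells its counts came from was not tested. By contrast, ovo fell by 3.29 (SE 0.39) and otu by 4.76 (SE 0.33) on the log2 scale with nosGAL4. The germline gene bgcn rose by 6.77 (SE 1.14) with nosGAL4, to 8.51 and 4.11 CPM from 0 and 0.0866 CPM in the controls. With bamGAL4 bgcn was not called (1.11, edgeR adjusted p = 0.235). These genes were chosen after their values were seen. BicC, with its doubtful zeros, is in the sum and gave 51.1 CPM of it in nosGAL4 knockdown replicate 2 and 222 CPM in bamGAL4 control replicate 2. The part of these cell types in the values of the 7 genes was not tested.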

How the data were processed

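RNA-seq libraries from ovaries of 4 groups were used. The authors deposited estimated counts per gene, 1 column per library, unscaled. Per the submitters' processing notes, Salmon 1.2.1, STAR 2.7.5b, Trim Galore 0.6.6 and FastQC 0.11.8 were used with build dm6 (roles and order not stated), and per the labels' protocols the kit was directional. For the annotation and strand setting of the counting, nothing is given in the sources used here. A floor of 3 counts is 0.238 to 0.405 CPM, for counting error only.

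Counts were rounded. Genes were kept by filterByExpr (minimum count 10, total 15), scaled by TMM and fitted with edgeR 4.0.16 (R 4.3.3, limma 3.58.1, prior count 0.125) as 1 robust quasi-likelihood model of 4 groups with 4 residual degrees of freedom. Benjamini-Hochberg adjustment ran over 8957 genes (threshold 0.05). SE is the log2 fold change divided by the root of F. Positions and exon lengths come from BDGP6.54, in dm6 coordinates, which held 14048 of the 14094 genes. Genes named by the planned rule are the 7, stwl, nos and bam, and genes overlapping the 7. The rule also covers the 2 nearest in pattern to each of the 7, and up to 3 per pathway list and driver by smallest adjusted p. Other genes named from the pathway and marker lists fall outside this rule, and were picked with their values in view. Members and lists were chosen with earlier results of these data known. The model was also run on simulated data, with results not reported here. A planned promoter motif search was not run. Alternatives included DESeq2 1.42.0, other scalings and filters, a length correction by lowess (span 0.5), a replicate block and each library left out.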

Additional observations from a re-analysis of the deposited data

How the results depend on the processing

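With 2 libraries a group, small differences had wide intervals, and where 1 library was left out its lone partner was assumed to vary like the other groups. With nosGAL4, 116 of 126 values of the 7 genes under the 18 alternatives kept their direction and call, and with bamGAL4 121 of 126 did. The counts of 6 lower and 1 higher stayed within 1.5 times under each alternative. The nosGAL4 call of csul was lost with no filter, the replicate block, DESeq2 and without 5 single libraries (adjusted p up to 0.133). With bamGAL4, csul was lost without knockdown replicate 1 or 2 and with DESeq2, and had 0.05 with ribosomal protein scaling. Scaling to ribosomal protein genes also gave osk −4.31 and vas −2.79 with nosGAL4, and osk −5.34, vas −3.70, tud 4.75, gcl −1.88 and pgc −7.17 with bamGAL4. It moved the share of higher calls over all genes to 40.9% with nosGAL4 (56.6% with TMM, 43.0% with library totals) and to 78.0% with bamGAL4 (51.5% with TMM).

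Replicate numbers were treated as shared labels only. Deviations of same-numbered libraries correlated at −0.03 with nosGAL4 and 0.01 with bamGAL4 over 8957 genes. With so few libraries this cannot decide whether they were paired. The replicate block gave csul −0.66 with nosGAL4 (adjusted p = 0.0855) and called 2 genes as higher between the libraries labelled knockdown, osk (2.93) and gcl (1.11), where the unblocked test called 0.

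Of the difference between drivers, 0 genes were called by the edgeR test, 1 (higher) with no filter, 3 (higher) by DESeq2, 3 (lower) with ribosomal protein scaling, and 0 to 2 (higher) when single libraries were left out. Between controls the count was 0, and 1 (higher, osk) with ribosomal protein scaling. Between libraries labelled knockdown it was 0, and 2 (higher) with RLE, ribosomal protein scaling, no filter, the stricter filter and the block, 1 with the length correction, 4 by DESeq2 and 0 to 2 without single libraries.

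Values near 0 changed sign, and the cause was not tested. In the difference between drivers, vls was −0.06 with RLE and with DESeq2, −0.08 with library totals, −1.32 with ribosomal protein scaling, −0.41 with the length correction, −0.40, −0.09 and −0.11 without nosGAL4 knockdown replicate 1, bamGAL4 knockdown replicate 2 and bamGAL4 control replicate 2, and at most 0.49 without any 1 library. For csul it was 0.00, −1.21 and −0.05 with library totals, ribosomal protein scaling and the length correction, for gcl −0.16 with ribosomal protein scaling, and for tud 0.46 with the length correction and −0.73 to 0.08 without single libraries, the highest without nosGAL4 control replicate 1. Between controls, gcl was 0.09 with RLE and DESeq2, 0.12 with library totals, 0.95 with ribosomal protein scaling, 0.02 with the stricter filter, 0.05 with the length correction, 0.06 when the control libraries alone were fitted, and −0.17 to 0.15 without single libraries, with 0.12 without nosGAL4 control replicate 1 and 0.15 without bamGAL4 control replicate 2. With ribosomal protein scaling vls was 0.67, pgc 0.66 and csul 0.75, and with the length correction vls was 0.12, pgc 0.19 and tud −0.66. Without single libraries pgc was −0.56 to 0.04, the highest without bamGAL4 control replicate 1. For tud it was −0.01 with the block and −0.47 to 0.35 without single libraries, below 0 without nosGAL4 control replicate 1 (−0.47) or bamGAL4 control replicate 2 (−0.20). Between libraries labelled knockdown, vls was −0.69 to 0.20 without single libraries, above 0 without nosGAL4 replicate 2 (0.20) or bamGAL4 replicate 1 (0.05), and csul −0.10 to 0.05, above 0 without bamGAL4 replicate 2. The bamGAL4 value of stwl was −0.40 with the length correction (adjusted p = 0.347), and it was called as higher with ribosomal protein scaling (1.34, adjusted p = 0.00729).

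Over all genes, calls ranged from 4021 to 5695 with nosGAL4 (5307 as reported), 4487 to 6684 with bamGAL4 (6099), 29 to 3530 for the difference (240), 27 to 3249 between controls (609) and 22 to 1371 between libraries labelled knockdown (371).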

Other observations

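BicC, a gene for an RNA-binding protein of the germline, had estimated counts of 0 and 385.522 in the nosGAL4 libraries labelled knockdown and 0 in both of their controls. With bamGAL4 the estimated counts were 15.246 and 0 in the libraries labelled knockdown, against 0 and 2806.99 in the controls. The gene cup, whose protein binds eIF4E and represses osk translation, was listed at 0 in all 8 libraries. An exact 0 among estimated counts can be a failed estimate. The edgeR test did not call BicC with either driver, and cup was not tested.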
